A study of Mus musculus with 6 samples.

Results

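The 10 genes described here encode the machinery with which a cell shows peptides to T cells on molecules of the major histocompatibility complex (MHC). They were taken by symbol as H2-K1, H2-D1, B2m, Tap1, Tap2, Tapbp, Cd74, H2-DMa, H2-DMb1 and Ciita, and all 10 were found among the 55401 genes of the count tables. The libraries came from Raw264.7, a mouse macrophage line that grew out of an ascites tumour induced by Abelson murine leukemia virus. The study asked what Nop16, a nucleolar protein of ribosome assembly, does in macrophage cells. By title and genotype tag, 3 libraries are control siRNA (genotype WT) and 3 are Nop16 siRNA (genotype Nop16 KD). The treatment tag reads "no" for all 6, and 1 text shared by all 6 gives a Nop16 siRNA at 20 nM with Lipofectamine RNAi Max for 3 days. The sources used here do not say what the control cells received, nor the sequence or number of the siRNAs. No label says that the replicates were separate cultures, so the spread behind each p-value may be technical.

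Class I molecules display peptides from the cytosol. The immunoproteasome cuts proteins to peptides, the Tap1 and Tap2 transporter carries these into the endoplasmic reticulum, and tapasin (Tapbp) holds the empty heavy chain (H2-K1 or H2-D1) with B2m at the transporter until a peptide binds. Class II molecules display peptides from endosomes. Their chains are escorted by the invariant chain Cd74, cathepsins trim Cd74 to a short remnant, and the H2-DM heterodimer exchanges that remnant for peptide. Ciita is the master transactivator of class II genes and Nlrc5 that of class I genes. Neither binds DNA alone: both sit on RFX, CREB and NF-Y factors assembled on a promoter module of S, X1, X2 and Y boxes.

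Total counts ran from 15601477 to 23061922 per library, and all 3 control libraries were deeper than all 3 Nop16 siRNA libraries. A gene with 3 counts lay at 0.13 to 0.192 CPM (counts scaled to the library's total), and this floor covers counting error only. Nop16 itself stood at 17.8, 18.9 and 20.3 CPM in the control libraries and at 3.91, 4.12 and 4.51 CPM in the Nop16 siRNA libraries, as the labels say (log2 fold change -2.16, SE 0.12, edgeR adjusted p = 2.94e-23). Of 8 macrophage markers, all tested, 6 were higher and 1 lower after Nop16 siRNA, beside 23% higher and 22.4% lower over all tested genes. The markers summed to 4846 to 5099 CPM in control and 7796 to 8162 CPM in Nop16 siRNA libraries. Lyz2 added the most to that rise, from a mean of 1151 to 2908 CPM, while Fcgr1 was lower and Adgre1 did not pass. The part of the macrophage markers in the results below was not tested. Of 7 dendritic cell markers 3 were tested: Itgax was higher (log2 fold change 1.96), Batf3 lower (-0.78) and Zbtb46 not past the threshold. Their summed level was 14.1 to 16.8 CPM in control and 33.5 to 39.2 CPM in Nop16 siRNA libraries, while Ccr7 and Siglech had 0 counts and Flt3 and Xcr1 at most 2. Of 7 B lymphoid markers 2 were tested and Ighm was lower (-0.89), with sums of 51.6 to 57.2 and 45.8 to 50.7 CPM and 0 counts for Pax5. The 6 T and NK markers summed to 4.55 to 6.02 and 4.4 to 5.06 CPM, with 0 counts for Cd3e, Cd8a and Ncr1, and the 4 fibroblast and epithelial markers to 1.24 to 1.65 and 1.2 to 1.41 CPM. In a bulk sample, fewer cells that express a gene and less RNA per cell cannot be told apart.

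Of the 10 genes, 9 passed a filter on low counts and were tested with edgeR's quasi-likelihood test over 14269 genes. Cd74 rose, and H2-K1, H2-D1, Tap1, Tap2, H2-DMa and H2-DMb1 fell, at a Benjamini-Hochberg adjusted p below 0.05. B2m and Tapbp did not pass, and Ciita did not pass the filter on low counts. Across all tested genes 45.4% were called, 23% higher and 22.4% lower, so a call by itself is common in these libraries. The 9 tested genes split 1 higher to 6 lower, and the median log2 fold change was -0.17, beside a median of zero to 2 decimals over all tested genes. The CPM ranges of the 2 groups did not overlap for 7 of the 9, against 52.6% of all tested genes. The changes were small: the largest among the called 7 was 0.65 on the log2 scale, and 18.9% of all called genes moved further. When a fold of at least 1.2 was tested in place of any change, 2 of the 6 falls, those of Tap1 and H2-DMb1, and the rise of Cd74 remained.

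**Figure D1:**
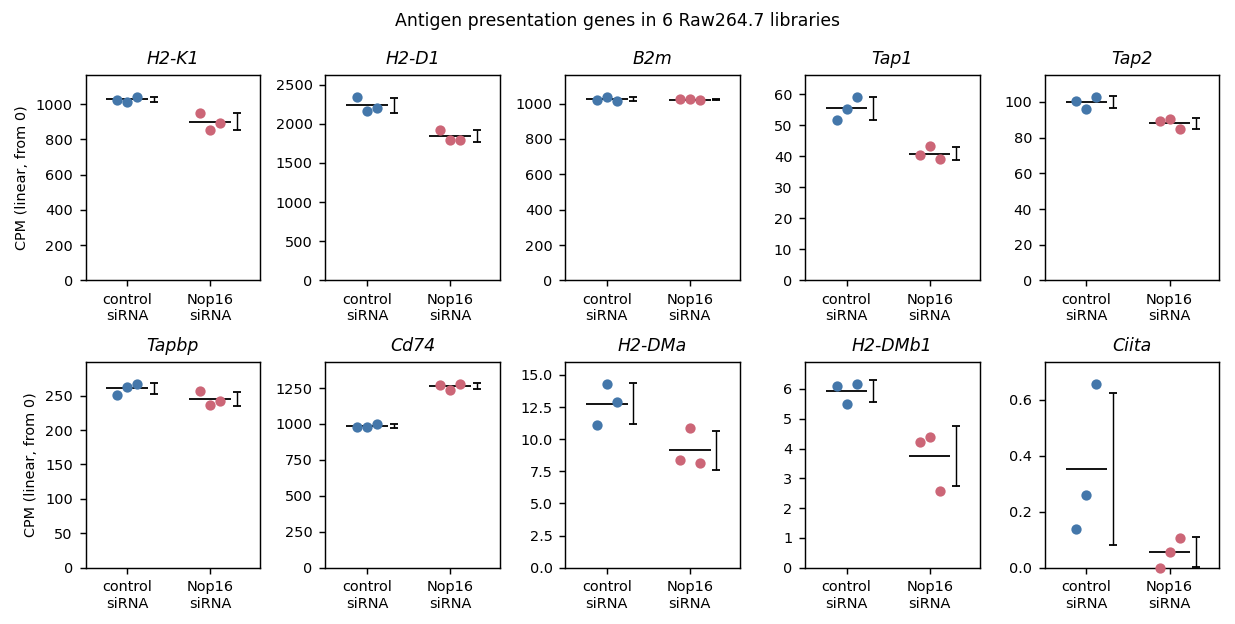
CPM of the 10 genes in each library, on a linear axis from 0 that differs by gene. Points are libraries, horizontal lines are means of 3 and the bars beside them are SD. The Cd74 points of the Nop16 siRNA libraries (1238 to 1279 CPM) lie above all control points (979 to 1003 CPM), those of H2-D1 lie below, and those of B2m overlap between the groups.

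The levels of the 10 genes spanned a wide range. Scaled per kilobase of counted gene length and to the library's total (TPM), B2m was the most abundant in control cells at 2402 ± 37.9 TPM (SD, n = 3), followed by H2-D1 at 1745 ± 65.6, Cd74 at 1184 ± 19.4 and H2-K1 at 704 ± 10.5. Tapbp (145 ± 5.47 TPM) stood above Tap2 (53.1 ± 1.65) and Tap2 above Tap1 (20.4 ± 1.48). H2-DMa (7.46 ± 0.955 TPM) and H2-DMb1 (7.1 ± 0.412) overlapped in their ranges, and Ciita came last at 0.0744 ± 0.0575 TPM. The invariant chain was thus plentiful in cells in which the exchange factor was scarce. After Nop16 siRNA the mean of Cd74 (1584 ± 17.7 TPM) moved past that of H2-D1 (1502 ± 57.5), although the ranges of the 2 genes overlapped. The other genes kept their places, with H2-DMa (5.59 ± 0.954 TPM) and H2-DMb1 (4.69 ± 1.28) again overlapping. These levels rest on the C57BL/6 reference genome, while Raw264.7 derives from a BALB/c mouse with another MHC haplotype. Reads of a diverged allele, or of a heavy chain gene that the reference lacks, can be lost or placed on a relative.

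The classical heavy chains fell. H2-K1 (chromosome 17, 33996017 to 34000347, minus strand, GRCm38) stood at 1024, 1014 and 1043 CPM in the control libraries and at 951, 856 and 893 CPM in the Nop16 siRNA libraries. All 3 Nop16 siRNA libraries lay below all 3 controls. H2-K1 fell by 11% (log2 fold change -0.17 with SE 0.0296, edgeR adjusted p = 3.87e-06). H2-D1 (chromosome 17, 35262730 to 35267499, plus strand) had 2346, 2164 and 2195 CPM in control and 1925, 1795 and 1795 CPM in Nop16 siRNA libraries. Again the groups did not overlap, and the gene fell by 16.5% (log2 fold change -0.26 with SE 0.0296, edgeR adjusted p = 5.96e-10). Neither passed in the test of a fold of 1.2 (adjusted p = 1 for H2-K1 and 0.741 for H2-D1).

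Heavy chain genes are close relatives, and fragments that align to several genes were counted for each. Of the 100-base windows of H2-D1 transcripts, 3.59% occurred in a transcript of another gene, with H2-Q1 sharing the most (3.28%), and of those of H2-K1, 0.957% did, all of them found in H2-Q10. With 50-base windows the shares were 12.8% and 9.63%. The counts of the 19 listed class I heavy chain genes with an H2 name were therefore also summed. A fragment that aligns to several of them enters this sum once for each. Fragments shared with genes outside the 19 stay in it too, since H2-T23, for one, shares windows with Gm7030. The sum was 6263, 5981 and 5969 CPM in control and 5145, 4904 and 4946 CPM in Nop16 siRNA libraries. The groups did not overlap (log2 change -0.26, exact two-sided permutation p = 0.1, the smallest that 3 against 3 libraries can give). The sum of the 17 genes other than H2-K1 and H2-D1 changed by -0.29 on the log2 scale, also without overlap.

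Along the list of 21 class I heavy chain and class I-like genes, 18 were tested, 6 were lower and 1 was higher, with a median log2 fold change of -0.25. Without H2-K1 and H2-D1, 4 of 16 were lower and 1 was higher, with a median of -0.26. Over all tested genes 22.4% were lower and 23% higher, so the share of lower genes among the 16 was near that of all genes. H2-Q4, a nonclassical chain of the Q region, showed the largest fall among those called: 561, 587 and 587 CPM in control and 417, 415 and 429.9 CPM in Nop16 siRNA libraries (log2 fold change -0.44 with SE 0.0294, edgeR adjusted p = 1.07e-19). H2-Q2 fell by 0.32 and H2-Q6 by 0.29 on the log2 scale. H2-M3, which presents formylated bacterial and mitochondrial peptides, went the other way. It stood at 60.4, 58.4 and 60.5 CPM in control and at 74.7, 71.7 and 71.9 CPM in Nop16 siRNA libraries (log2 fold change 0.31 with SE 0.0491, edgeR adjusted p = 3.98e-07). Of the 100-base windows of H2-Q4, H2-Q2 and H2-Q6, 2.16%, 5.09% and 10.8% also occurred in another gene. With 50-base windows the shares were 21.8%, 16.1% and 32%, so the counts of these relatives are not independent. H2-Q7 was singled out after its values were seen: it had 144 CPM in control replicate 1 against 51.8 and 50.4 in the other two controls and 32.8, 37.2 and 34.3 in the Nop16 siRNA libraries, and did not pass (log2 fold change -1.22, SE 0.568, edgeR adjusted p = 0.169). The number of lower genes in this list went from 6 to 10 when robust dispersion was switched off.

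The promoters of the 2 classical heavy chains carry near-identical stretches of letters, which are shown because H2-K1 and H2-D1 moved together. RefSeq promoter windows of 300 bases (250 before to 50 after the start, GRCm38.p6) were used for 7 of the 10 genes. None was used for Tap2, Cd74 or Ciita, so no letters are reported for these genes. The letters searched were chosen after these sequences had been seen. Below, the first run of capitals matches an NF-kappaB site. The second is the motif AANNGAAA read on the opposite strand, which matches the core bound by interferon regulatory factors. Sequences are on the gene's strand, 5′ to 3′, and H2-K1 lies on the minus strand and the others on the plus strand.
H2-K1, chr17:34000429-34000458, minus strand: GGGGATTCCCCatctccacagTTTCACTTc
H2-D1, chr17:35262923-35262952, plus strand: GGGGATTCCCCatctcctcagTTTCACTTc
H2-Q6, chr17:35424677-35424706, plus strand: GGGGATTCCCCatctccccagTTTCACTTc
The stretch of H2-D1 lies within the span of its counted gene model, which begins further upstream. Among 27025 genes with a promoter window, 0.0333% held the letters of the first run and 26.7% held AANNGAAA on either strand. AANNGAAA was in 4 of the 7 windows, those of H2-K1, H2-D1, B2m and H2-DMa. It was also in 13 of 15 class I list genes with a window, among them H2-M3, which rose. H2-Q6, which holds the first run, was lower, as were H2-Q4, H2-Q2 and H2-T22, which do not hold it. H2-M3 does not hold it either. These are matches of letters, and their part in the changes was not tested.

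B2m, the light chain that classical class I heavy chains share, did not pass. It stood at 1022, 1039.8 and 1016 CPM in control and at 1025, 1025 and 1019 CPM in Nop16 siRNA libraries (chromosome 2, 122147686 to 122153083, plus strand). The groups overlapped, with a log2 fold change of 0.02 and an SE of 0.0268 (edgeR adjusted p = 0.618). Per B2m count within a library, H2-K1 gave 1, 0.975 and 1.03 counts in control and 0.927, 0.835 and 0.877 counts in Nop16 siRNA libraries. H2-D1 gave 2.29, 2.08 and 2.16 against 1.88, 1.75 and 1.76 counts. Neither ratio overlapped between groups (log2 changes -0.19 and -0.28). For each, the exact two-sided permutation p was 0.1, the smallest possible here, and 0.14 after adjustment over the 7 ratios computed, which were chosen after the values were seen. A ratio of counts is not a ratio of molecules, since the genes differ in length.

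**Figure D2:**
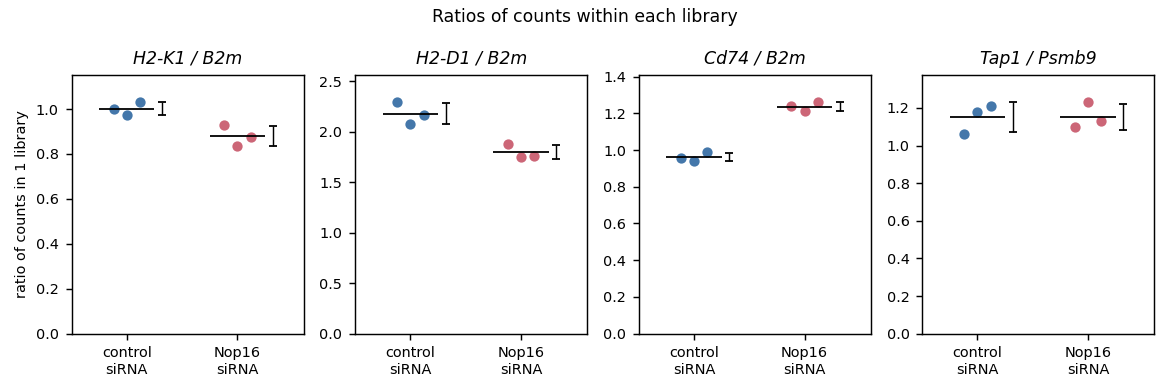
Ratios of counts within each library for 4 of the 7 gene pairs, on linear axes from 0. Points are libraries, lines are means of 3 and bars are SD. H2-K1 and H2-D1 per B2m are lower in the Nop16 siRNA libraries, Cd74 per B2m is higher (1.21 to 1.26 against 0.943 to 0.987), and Tap1 per Psmb9 overlaps (1.1 to 1.23 against 1.06 to 1.21).

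The promoters of H2-K1, H2-D1, B2m and H2-DMb1 share the spacing of an X2 and a Y box, and it is shown because these 4 genes did not move alike. Capitals mark TGANG, the start of the CREB-binding X2 box, and ATTGG, the Y box that NF-Y binds, with 20 bases between them. The last 2 lines are H2-DMb2 and H2-M3, the only others among 54 listed genes with a window that held this pair.
H2-K1, chr17:34000359-34000388, minus strand: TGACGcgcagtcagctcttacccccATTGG
H2-D1, chr17:35262993-35263022, plus strand: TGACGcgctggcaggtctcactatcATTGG
B2m, chr2:122147609-122147638, plus strand: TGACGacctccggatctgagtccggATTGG
H2-DMb1, chr17:34153105-34153134, plus strand: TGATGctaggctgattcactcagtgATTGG
H2-DMb2, chr17:34145134-34145163, plus strand: TGATGctaggctaagtcacttagtgATTGG
H2-M3, chr17:37270188-37270217, plus strand: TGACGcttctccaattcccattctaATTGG
The stretches lie at positions -41 to -12 (H2-K1), -101 to -72 (H2-D1), -78 to -49 (B2m) and -86 to -57 (H2-DMb1) from the RefSeq start. Those of H2-D1, H2-DMb1 and H2-DMb2 fall within the span of the counted gene models, which begin further upstream. On either strand, 0.444% of the 27025 genes held the pair at this spacing, and 0.27% to 0.444% at spacings of 16 to 24 bases. ATTGG alone, which each pair contains, was in all 7 windows and in 41.1% of genes. Of the 6 genes shown, H2-K1, H2-D1, H2-DMb1 and H2-DMb2 fell, H2-M3 rose and B2m did not pass. A match is a description of letters and not a site of binding in these cells.

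Both subunits of the peptide transporter fell. Tap1 (chromosome 17, 34187553 to 34197225, plus strand) had 51.7, 55.4 and 59.3 CPM in control and 40.5, 43.2 and 39.1 CPM in Nop16 siRNA libraries. Every Nop16 siRNA library was below every control, and Tap1 fell by 24.9% (log2 fold change -0.41, SE 0.0591, edgeR adjusted p = 2.7e-08). Tap2, its partner subunit (chromosome 17, 34203527 to 34216321, plus strand), had 100.3, 96.3 and 103 CPM in control and 89.5, 90.2 and 84.6 CPM in Nop16 siRNA libraries. The groups did not overlap, and Tap2 fell by 10.4% (log2 fold change -0.16, SE 0.0436, edgeR adjusted p = 0.00206). Tapbp (chromosome 17, 33915899 to 33929292, plus strand) had 251, 263 and 267 CPM in control and 257, 237 and 242 CPM in Nop16 siRNA libraries. The groups overlapped and the difference did not pass (log2 fold change -0.07, SE 0.0336, edgeR adjusted p = 0.11). Tapbp did pass when control replicate 1 (adjusted p = 0.0414) or replicate 1 of the Nop16 siRNA group (0.0193) was left out, and with scaling by library size only (0.0274).

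Tap1 shares a divergent promoter with Psmb9, an immunoproteasome subunit: the 2 RefSeq starts are 226 bases apart and their windows share 275 bases. Psmb9 fell nearly as Tap1 did, from 48.5, 46.8 and 49.1 CPM to 36.9, 35.1 and 34.6 CPM (log2 fold change -0.42 with SE 0.0607, edgeR adjusted p = 4.38e-08). Tap1 counts per Psmb9 count were 1.06, 1.18 and 1.21 in control and 1.1, 1.23 and 1.13 in Nop16 siRNA libraries, overlapping, with a log2 change of 0.00 (exact permutation p = 1). Exons of the 2 genes overlap on opposite strands over 3.87% of Tap1, and the counting used strand. Psmb8, the catalytic subunit next to Tap1, fell as well, from 119, 124 and 120.0 CPM to 95.8, 94 and 95.8 CPM (log2 fold change -0.32 with SE 0.0404, edgeR adjusted p = 6.26e-10). Psmb10 (-0.16, adjusted p = 0.0461) and the activator subunit Psme1 (-0.11, adjusted p = 0.0427) were at the threshold in edgeR. This list had 4 lower and 0 higher of 5, beside 22.4% lower and 23% higher over all tested genes. The count of lower genes went down to 2 in DESeq2, in limma-voom and with robust dispersion off. It did likewise when replicate 1 or 3 of the controls or replicate 1 or 2 of the Nop16 siRNA group was left out.

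The loading list as a whole was split. Of 10 genes, all tested, 3 were higher, 3 lower and 4 did not pass, beside 23% higher and 22.4% lower over all tested genes. The median log2 fold change was -0.02 and the mean 0.01. Outside the transporter, the tapasin-related editor Tapbpl rose (log2 fold change 0.56, edgeR adjusted p = 4.12e-07). The chaperone Calr rose by 0.17 (adjusted p = 1.34e-07) and the aminopeptidase Lnpep by 0.18 (2.79e-05). Erap1, which trims peptides in the endoplasmic reticulum, fell by 0.17 on the log2 scale (adjusted p = 0.00344). With scaling by library size only, 5 genes of this list were lower.

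**Figure D3:**
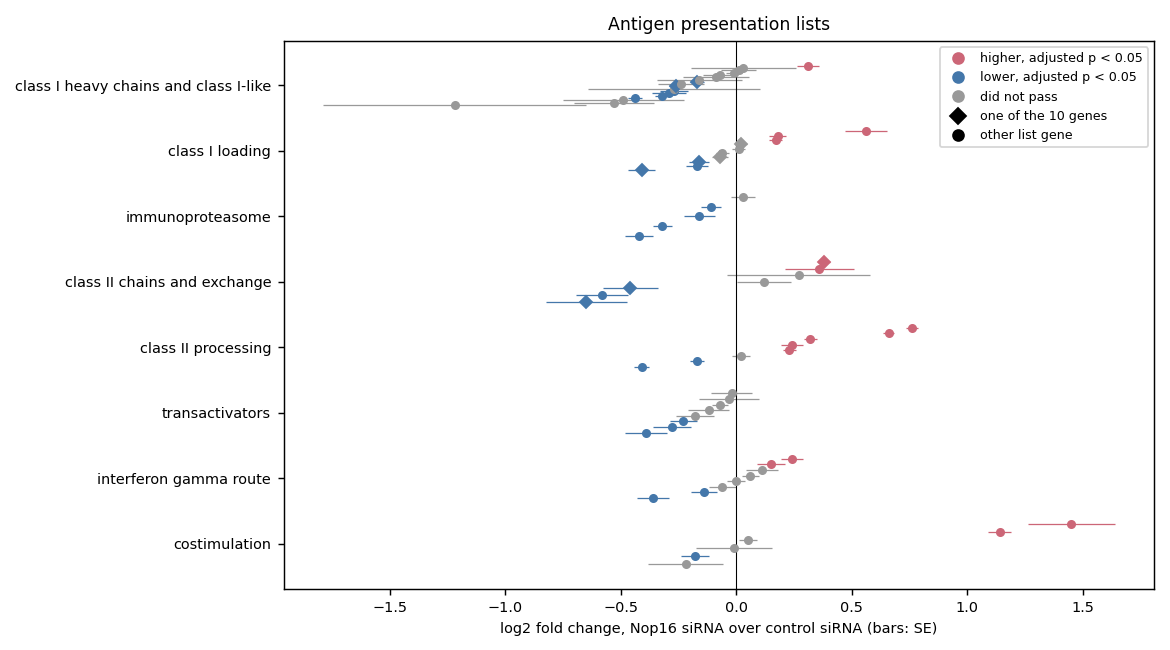
Log2 fold change (Nop16 siRNA over control siRNA) of each tested gene in 8 lists, with SE as bars, coloured by the edgeR call. Diamonds are the genes described here. The immunoproteasome list has 4 lower genes and 0 higher, and the class II processing list has 5 higher and 2 lower. Over all tested genes 23% were higher and 22.4% lower.

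On the class II side, the invariant chain and the exchange factor moved in opposite directions. Cd74 (chromosome 18, 60803848 to 60812652, plus strand) stood at 979, 981 and 1003 CPM in control and at 1269.7, 1238 and 1279 CPM in Nop16 siRNA libraries. All 3 Nop16 siRNA libraries lay above all controls, and the rise was 29.8% (log2 fold change 0.38, SE 0.027, edgeR adjusted p = 1.74e-18). It was the only one of the 9 tested genes to rise. Its fold change kept between 0.35 and 0.39 over all alternatives tried, and no 100-base window of its transcripts was shared with another gene. Per B2m count, Cd74 gave 0.958, 0.943 and 0.987 counts in control and 1.24, 1.21 and 1.26 counts in Nop16 siRNA libraries, without overlap (log2 change 0.36, exact permutation p = 0.1, adjusted 0.14). The genes whose level over the 6 libraries was most like that of Cd74, by root mean square difference of centred log2(CPM + 0.5) among 10777 genes, included Lsp1 (0.00951) and Sdcbp (0.0147).

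H2-DMa and H2-DMb1 encode the alpha chain and a beta chain of H2-DM. H2-DMa (chromosome 17, 34119541 to 34139101, plus strand) had 11.1, 14.3 and 12.9 CPM in control and 8.4, 10.9 and 8.16 CPM in Nop16 siRNA libraries. The highest Nop16 siRNA library lay just under the lowest control, and the gene fell by 27.3% (log2 fold change -0.46, SE 0.119, edgeR adjusted p = 0.00105). It did not pass in the test of a fold of 1.2 (0.0808). Of the exonic bases of H2-DMa, 10.4% overlap Brd2 on the opposite strand. Brd2 was far more abundant and also fell, from a mean of 315 to 247 CPM (log2 fold change -0.33, edgeR adjusted p = 5.67e-13). The counting used strand, and whether Brd2 fragments entered the H2-DMa counts was not tested. H2-DMb1 (chromosome 17, 34153072 to 34160230, plus strand) had 6.1, 5.51 and 6.17 CPM in control and 4.23, 4.4 and 2.58 CPM in Nop16 siRNA libraries, from 133, 127 and 122 counts and 66, 77 and 48 counts. The groups did not overlap, and Nop16 siRNA replicate 3 was the lowest library. H2-DMb1 fell by 36.3% (log2 fold change -0.65, SE 0.176, edgeR adjusted p = 0.00173), the largest change of the 9 genes. Without that library the log2 fold change was -0.43 and no longer passed (adjusted p = 0.0564). By the same measure of likeness, the genes nearest to H2-DMb1 among 10778 included Ddit3 (0.0659) and Gm10029 (0.114).

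A second beta chain gene, H2-DMb2, lies beside H2-DMb1, and 11.3% of the 100-base windows of H2-DMb1 transcripts also occurred in H2-DMb2, so the counts of the pair are not independent. H2-DMb2 fell from 13.3, 12.6 and 13.2 CPM to 9.17, 8.29 and 8.26 CPM, without overlap (log2 fold change -0.58, SE 0.113, edgeR adjusted p = 1.56e-05). Cd74 counts per H2-DMa count were 87.9, 68.7 and 77.8 in control and 151, 114 and 157 in Nop16 siRNA libraries. The groups were separate, with a log2 change of 0.84 (exact permutation p = 0.1, adjusted 0.14). H2-DMb1 counts per H2-DMa count overlapped (log2 change -0.22, exact permutation p = 0.5, adjusted 0.583).

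The class II chains that Cd74 and H2-DM serve had few or no counts on the C57BL/6 reference. Reads of diverged BALB/c alleles can be lost here too, and their part in the low counts was not tested. H2-Ab1, the beta chain of I-A, had 31, 26 and 27 counts in control and 28, 21 and 31 counts in Nop16 siRNA libraries, and did not pass (log2 fold change 0.27, SE 0.31, edgeR adjusted p = 0.506). H2-Aa, its alpha chain partner, had 0, 3 and 0 counts in control and 5, 0 and 7 counts in Nop16 siRNA libraries, and did not pass the filter. H2-Eb1 had at most 2 counts in any library, and H2-Eb2 and H2-Ea-ps had 0 in all. H2-Ob, the beta chain of the H2-DM inhibitor H2-O, passed with a log2 fold change of 0.36 (adjusted p = 0.0407), and lost that call when any 1 of the 6 libraries was left out (adjusted p from 0.0509 to 0.163), in DESeq2 (0.122), with no filter (0.07) and with scaling by library size only (0.0568). Of 11 class II chain and exchange genes, 7 were tested, 2 were higher and 3 lower, beside 23% and 22.4% of all tested genes. Their median log2 fold change was 0.12 and their mean -0.08, so the 2 differ in sign.

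Most of the tested genes of the class II processing list rose, as Cd74 did. Of 9 listed genes 8 were tested, 5 were higher and 2 lower, beside 23% higher and 22.4% lower over all tested genes. The median log2 fold change of the 8 was 0.24. The lysosomal proteases Ctsb (3546 ± 69 to 5897 ± 26.7 CPM, SD, n = 3) and Ctsd (4392 ± 25.1 to 6824 ± 86.3 CPM) rose by 0.76 and 0.66 on the log2 scale in edgeR. Ctsl, which trims Cd74 in some cell types, rose by 0.32. Ifi30, the lysosomal thiol reductase that unfolds antigens, fell from 334 ± 4.25 to 248 ± 5.2 CPM (log2 fold change -0.41, edgeR adjusted p = 1.97e-17). These lysosomal genes moved beside the rise of the summed macrophage markers given above, to which Lyz2 added the most. The part of that rise was not tested.

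The transactivators showed 0 higher and 3 lower of 8 tested genes and a median log2 fold change of -0.15. Over all tested genes 23% were higher and 22.4% lower. Ciita (chromosome 16, 10480059 to 10528418, plus strand) had 3, 6 and 13 counts in control and 0, 1 and 2 counts in Nop16 siRNA libraries. Every Nop16 siRNA library was below every control, but all 3 lay under the floor of 3 counts and 1 control lay on it. Pooled over libraries, 22 counts of 64639659 against 3 of 51720692 give a ratio of 0.17, with a 95% interval of 0.033 to 0.567 that covers counting error only, and the exact permutation p over libraries was 0.1. When the filter on low counts was dropped, edgeR gave Ciita an adjusted p of 0.0546. Nlrc5 was far better covered. It had 22.7, 23.4 and 23 CPM in control and 21.5, 19.2 and 19.5 CPM in Nop16 siRNA libraries, separate but not past the threshold (log2 fold change -0.18, SE 0.0821, edgeR adjusted p = 0.0727). Of the DNA-binding partners, Nfyb fell by 0.39, Rfx5 by 0.28 and Creb1 by 0.23 on the log2 scale (edgeR adjusted p = 0.000326, 0.00394 and 0.0012). The count of lower genes in this list was 5 with scaling by library size only and without Nop16 siRNA replicate 1.

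Interferon gamma, which acts through the receptor chains Ifngr1 and Ifngr2 and the kinases Jak1 and Jak2, is the best known inducer of this machinery. Along that route 8 of 9 listed genes were tested, 2 were higher and 2 lower, near the shares of 23% and 22.4% over all tested genes. The median log2 fold change was 0.03. Jak2 fell by 0.36 on the log2 scale (edgeR adjusted p = 1.6e-05) and the receptor chain Ifngr2 rose by 0.24 (1.5e-05). Ifngr1 (-0.14, adjusted p = 0.0446) was called in edgeR but not in DESeq2 (0.141), and it lost its call when replicate 1 or 2 of the controls or replicate 2 or 3 of the Nop16 siRNA group was left out. Among costimulatory genes, which a T cell reads together with the MHC, 6 of 7 were tested, 2 were higher and 1 lower. The same shares over all genes apply here. The median was 0.02 and the mean 0.37. The rises were large beside those of the presentation genes: Cd80 rose from 2.29 ± 0.289 to 6.13 ± 0.754 CPM (log2 fold change 1.45, edgeR adjusted p = 2.58e-09), and the adhesion gene Icam1 rose from 47.1 ± 1.51 to 102 ± 3.56 CPM (1.14, 8.23e-29). Icosl fell by 0.18 on the log2 scale (adjusted p = 0.0122), a call lost in DESeq2 (0.0568) and without control replicate 2 (0.137) or control replicate 3 (0.0574).

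Of the 10 genes, 7 lie within the MHC on chromosome 17, and their neighbours were counted across the 1.35 Mb from Tapbp to H2-D1 (chromosome 17, 33915899 to 35267499). Of 85 tested genes there, 30 (35.3%) were lower and 16 (18.8%) higher, with a median log2 fold change of -0.12. Without the 7 genes, 24 of 78 (30.8%) were lower and 16 (20.5%) higher, with a median of -0.07, and without the other listed genes too, 21 of 71 (29.6%) were lower and 15 (21.1%) higher. Over all tested genes the shares were 22.4% and 23%. Neighbours that are on none of the lists moved both ways. Tnf, the cytokine gene, rose from 38.8, 34 and 38 CPM to 70.6, 72.4 and 73.4 CPM (log2 fold change 0.99 with SE 0.056, edgeR adjusted p = 4.93e-23), Fkbpl rose by 0.68, and Zbtb12 fell by 0.96 on the log2 scale.

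A run of falls, picked out after the values were seen, covered the 96.8 kb from H2-DMa to Tap2 (chromosome 17, 34119541 to 34216321). Of 9 tested genes there 7 were lower and 0 higher, beside 22.4% lower and 23% higher over all tested genes. The 7 were H2-DMa, H2-DMb2, H2-DMb1, Psmb9, Tap1, Psmb8 and Tap2. The other two, Gm20496 and Gm15821, did not pass and overlap Tap2 on the opposite strand, over 18.5% of its exonic bases. Among the 5 genes of this stretch that are not of the 10, 3 were lower. Of these, H2-DMb2 shares 10.3% of its 100-base windows with H2-DMb1, and Psmb9 shares the promoter of Tap1. The ends of the stretch, H2-DMa and Tap2, are themselves lower genes, so its share of falls depends on where it was cut.

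**Figure D4:**
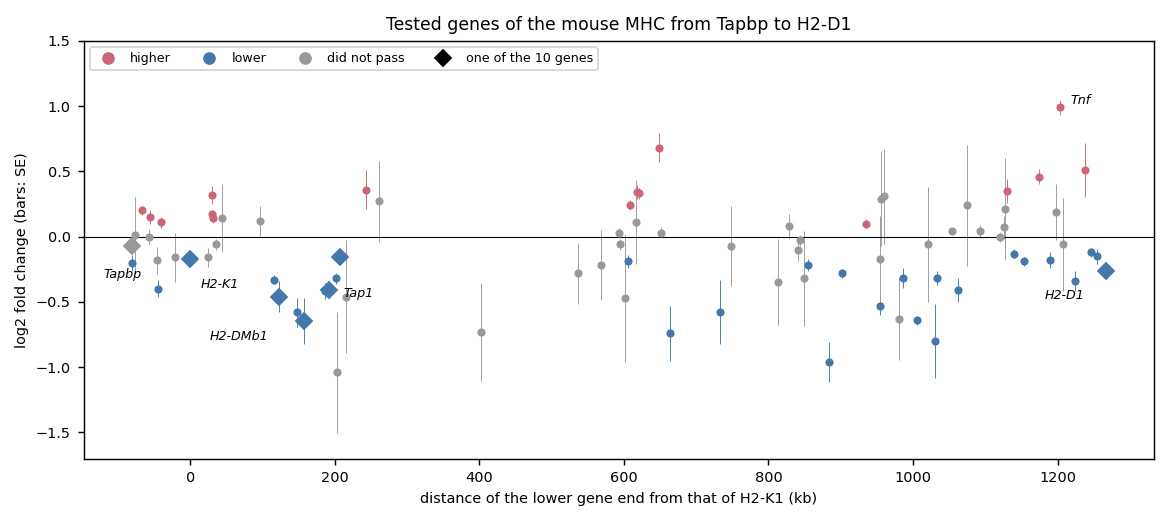
Log2 fold change (SE bars) of the 85 tested genes from Tapbp to H2-D1 against distance from H2-K1 in kb, coloured by the edgeR call, with diamonds for the genes described here. The 7 lower genes between H2-DMa and Tap2 lie together within 124 to 220.3 kb, and Tnf stands highest among the genes called higher. The shares over all tested genes were 22.4% lower and 23% higher.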

How the data were processed

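Poly(A) RNA was sequenced from 6 Raw264.7 samples with a directional kit, per the labels' protocols. The deposited values are counts of fragments per gene, made by the authors with featureCounts 2.0.1 on Ensembl release 101 models of GRCm38, per the file headers. Per the same headers, strand setting 2 and an overlap of at least 10 bases were used, only proper pairs entered, and a fragment mapped to several places or lying over several genes counted for each, so relatives and overlapping genes can share counts. HISAT2 2.2.1 and Trim Galore are named in the submitters' processing notes. The models were filtered in a way the headers do not describe. All 55401 genes were used, and 55141 had a symbol. Exons shared between genes and transcript windows came from GENCODE mouse release 21 on the same build, promoters from RefSeq (GRCm38.p6).

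Counts were tested with edgeR 4.0.16 (R 4.3.3; TMM, filterByExpr, robust quasi-likelihood), 3 against 3, with Benjamini-Hochberg adjustment over 14269 genes and a threshold of 0.05. Log2 fold changes give Nop16 siRNA over control siRNA, with SE taken as their size divided by the root of F. Sums, ratios and Ciita were tested by exact two-sided permutation. CPM are plain, and TPM use the counted length. The scripts were tested on simulated data. A chi-square test of each pair of libraries gave 2.46 to 3.01 per degree of freedom inside a group, above sampling noise for every pair, and 41.7 to 48 across groups.

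The members and lists were chosen with earlier results of these data known. Named besides the 10 genes and Nop16 are up to 4 called genes per list with the largest change and at least 1 CPM (the 2 most abundant where fewer than 2 were called), the 3 most changed unlisted genes of the MHC interval with at least 5 CPM, and the 3 genes most like the gene with the largest rise and that with the largest fall. Further genes are named where they are markers, class II chains with low counts, transactivators or in the run from H2-DMa to Tap2. Others overlap or share windows with a named gene, or are said to be singled out. A few genes that this rule or the marker lists take are not reported here. As alternatives, the scaling was changed, DESeq2 1.42.0 and limma-voom 3.58.1 were run, the filter was dropped or set to 5 CPM in 3 libraries, robust dispersion was switched off, the replicate number was made a block, a fold of at least 1.2 was tested, and each library was left out.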

Additional observations from a re-analysis of the deposited data

How the results depend on the processing

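Of the 10 genes, 1 was higher under every alternative. The number lower was 6, except 7 with scaling by library size only and when replicate 1 of either group was left out, 5 when replicate 3 of the Nop16 siRNA group was left out, and 2 in the test of a minimum fold of 1.2. That test left 1108 higher and 1253 lower over all genes tested, 5 higher and 4 lower among the listed genes other than the 10, and 3 higher and 8 lower in the MHC interval without the 10. B2m turned from 0.02 to -0.00 with scaling by library size only, where it did not pass (edgeR adjusted p = 0.914), and that scaling moved the median of all genes to -0.023. The summed class I heavy chain change kept between -0.23 and -0.28. Deviations of same-numbered libraries correlated at 0.017, -0.02 and -0.022. No shared replicate effect was visible, but these values cannot say whether same-numbered samples were handled together. A replicate block gave 1 higher and 6 lower of the 10 genes, and 3241 higher and 3188 lower over all genes. With the block, Psmb10 (adjusted p = 0.0512) and Ifngr1 (0.0501) lost their calls. Low counts limit Ciita, H2-Aa and H2-Eb1, which did not pass the filter on low counts and so have no value in the edgeR test reported. Psmb10 lost its call in 11 of 16 alternatives, H2-Ob in 10, and Psme1 and Ifngr1 in 8 each.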
